A study of Mus musculus with 8 samples.

Results

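Caudal mesoderm is the mesoderm at the tail end of the gastrulating and early organogenesis embryo. In these data it comprised 645 cells, 449 Eomes-KO and 196 WT host, of 28723 cells in the deposited cell table. The members were every cell whose combined annotation, the label that the study used downstream, read Caudal_Mesoderm. All 645 also carried this name in the original gastrulation atlas annotation, and no other cell did, so the combined and original labels hold the same cells. Genotype came from the tdTomato call of each cell and the library from its library name.

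The study injected tdTomato+ mouse embryonic stem cells (ESC) that lack Eomes into wild-type C57BL/6 blastocysts and collected the chimeric embryos at about E8.5. Eomes-KO cells are the injected, tdTomato+ cells, from 4 separate Eomes-KO clones, and WT host cells are the tdTomato- cells of the blastocysts. Embryos of 1 clone, roughly 4 to a tube according to the labels, were pooled, sorted by tdTomato and run as separate 10x 3' v3 libraries, which gave 4 Eomes-KO and 4 WT host libraries. Libraries injected with wild-type ESC were not analysed here, so the loss of Eomes cannot be told apart from the ESC origin, clone and sort that go with it. The host cells also share their embryos with mutant cells.

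Mesoderm of the tail end forms from the caudal epiblast, the primitive streak and the neuromesodermal progenitors (NMPs), and feeds the presomitic mesoderm from which somites segment. T (Brachyury) is needed for posterior mesoderm and axis extension, Tbx6 commits cells to paraxial mesoderm, Cdx2 gives posterior identity through Hox genes, and Hes7 is a component of the segmentation clock. Eomes is a T-box factor of the earlier streak, known for its roles in definitive endoderm and anterior mesoderm. The transcripts of these genes were not analysed here, because the table holds labels, positions and quality measures of cells and no gene counts.

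The label was therefore compared with the extended atlas annotation, which names cells from a later and finer version of the atlas. Both annotations came from the same mapping to nearest atlas cells. The comparison is thus between names and is no independent check of the cells. Only 71 of the 645 cells (11.01%, exact 95% interval 8.70 to 13.7%) were called caudal mesoderm there as well. Caudal epiblast, the tail-end epiblast from which mesoderm still ingresses, was the extended label of 483 cells (74.9%, 71.4 to 78.2%), and intermediate mesoderm, the source of the kidney and urogenital tissue, that of 86 cells (13.3%, 10.8 to 16.2%). The other 5 cells were split singly over presomitic mesoderm, NMPs, mesoderm-biased NMPs, primordial germ cells and non-neural ectoderm. The extended annotation thus does not bear out the name for most of the members, and caudal mesoderm below means the cells that carry the combined label.

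Across the series the libraries held 602, 1153, 3346 and 3465 cells in Eomes-KO and 2414, 3791, 5819 and 8133 cells in WT host, and are named by these numbers below. Shares are given of the epiblast-derived cells, which leave out visceral, parietal and extraembryonic endoderm and extraembryonic ectoderm and number 8561 in Eomes-KO and 19284 in WT host. The study's methods state more retained cells of both genotypes than the deposited table holds, and all counts and shares here refer to the table. Of the barcodes, 80 occurred in a pair of libraries, and 3 caudal mesoderm cells carried 1 of these.

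The share of caudal mesoderm was higher in Eomes-KO cells. It made up 4.33% of the epiblast-derived cells in the Eomes-KO library of 602 cells (26 cells), 6.70% in that of 1153 (77 cells), 6.996% in that of 3346 (234 cells) and 3.23% in that of 3465 (112 cells). In the WT host libraries it made up 0.501% in that of 2414 cells (12 cells), 0.745% in that of 3791 (28 cells), 1.75% in that of 5819 (90 cells) and 0.827% in that of 8133 (66 cells). The lowest Eomes-KO library lay above the highest WT host library, and their exact 95% binomial intervals, 2.67 to 3.88% and 1.41 to 2.14%, did not meet. These intervals cover counting error only and leave out the spread between libraries. In edgeR's quasi-likelihood test on cells per library and label, caudal mesoderm was 5.48-fold higher in Eomes-KO (log2 fold change 2.45, SE 0.44, Benjamini-Hochberg adjusted p = 0.000127 over 33 labels). Of those 33 labels, 7 (21.2%) were higher in Eomes-KO and 23 (69.7%) differed in either direction, so that a difference in itself was common among the labels. The paper names caudal and somitic mesoderm among the posterior derivatives to which Eomes-KO cells contributed efficiently. Its test on cell neighbourhoods had the embryo pool as a term beside genotype, which the fit here lacks. A share also rises where other labels fall. The paper reports gut tube and anterior mesoderm derivatives as deficient in Eomes-KO cells and paraxial mesoderm as impaired. Yolk sac endothelium and blood progenitors were not formed by these cells in the paper. The part of these losses in the fold change was not tested. The log2 fold change depended on the scaling, at 1.57 with DESeq2's ratio and 3.08 with its poscounts size factors.

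The higher share was found in the cells with the extended labels caudal epiblast and intermediate mesoderm. Caudal mesoderm cells with the extended label caudal epiblast were 3.66, 5.30, 5.41 and 2.51% of the epiblast-derived cells in the Eomes-KO libraries of 602, 1153, 3346 and 3465 cells. They were 0.376, 0.293, 1.42 and 0.489% in the WT host libraries of 2414, 3791, 5819 and 8133 cells, all below the Eomes-KO libraries. Counted per pair of combined and extended label, this set was higher in Eomes-KO by a log2 fold change of 2.68 (SE 0.48, edgeR, Benjamini-Hochberg adjusted p = 1.67e-06 over 116 pairs).

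Those with the extended label intermediate mesoderm made up 0.666, 0.696, 1.05 and 0.548% of the epiblast-derived cells in the same Eomes-KO libraries. Their shares in the WT host libraries were 0.0418, 0.0266, 0.155 and 0.125%. Again no WT host library reached the lowest Eomes-KO one. The log2 fold change was 2.90 (SE 0.52, edgeR, adjusted p = 1.79e-06), although the WT host values rest on 20 cells. Of the 116 pairs, 14 (12.1%) were higher in Eomes-KO and 79 (68.1%) differed in either direction.

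The cells that both annotations call caudal mesoderm did not pass the test. They numbered 0, 7, 17 and 6 in the Eomes-KO libraries of 602, 1153, 3346 and 3465 cells, against 2, 15, 9 and 15 in the WT host libraries of 2414, 3791, 5819 and 8133 cells. As shares of the epiblast-derived cells this was 0 to 0.609% in Eomes-KO and 0.0835 to 0.399% in WT host, and the groups overlapped. The log2 fold change was 0.70 (SE 0.54, edgeR, adjusted p = 0.236), from 30 Eomes-KO and 41 WT host cells. It ranged between 0.30, without the Eomes-KO library of 3346 cells, and 1.11, without the WT host library of 3791 cells, and passed in neither fit (edgeR, adjusted p = 0.730 and 0.0873).

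**Figure D1:**
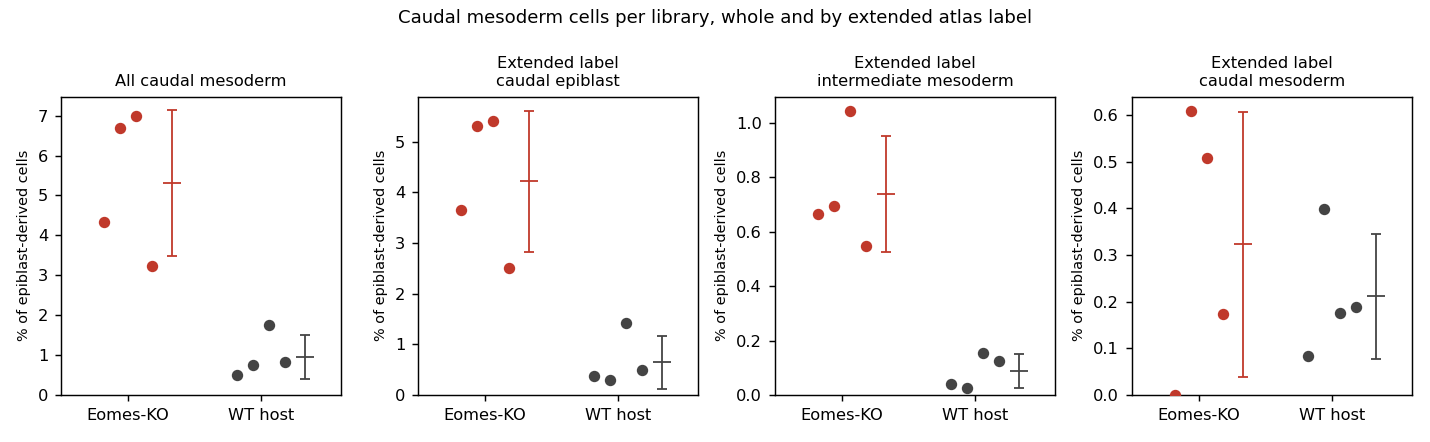
Each point is 1 library, and the y axis gives caudal mesoderm cells, all of them or those with 1 extended label, in % of the library's epiblast-derived cells, with the mean and SD of the 4 libraries of a genotype beside the points. All 4 Eomes-KO libraries lie above the WT host libraries in the first 3 panels, whereas the groups overlap for cells that both annotations call caudal mesoderm (0 to 0.609% against 0.0835 to 0.399%).

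Within caudal mesoderm, the makeup by extended label was compared next, since a share of the caudal mesoderm cells does not move with the loss of other lineages. The share with the extended label caudal epiblast was 84.6, 79.2, 77.4 and 77.7% in the Eomes-KO libraries of 602, 1153, 3346 and 3465 cells, against 75.0, 39.3, 81.1 and 59.1% in the WT host libraries of 2414, 3791, 5819 and 8133 cells. The Eomes-KO libraries stood close together and the WT host libraries were spread around and below them. The means, 79.7 ± 3.37% and 63.6 ± 18.7% (SD, n = 4 each), did not differ beyond that spread (exact permutation test, two-sided, p = 0.143, adjusted p = 0.143 over 3 labels).

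The share with the extended label caudal mesoderm was lower in every Eomes-KO library than in any WT host library. It was 0, 9.09, 7.26 and 5.36% in the Eomes-KO libraries of 602, 1153, 3346 and 3465 cells, against 16.7, 53.6, 10.0 and 22.7% in the WT host libraries of 2414, 3791, 5819 and 8133 cells. The WT host library of 3791 cells stood far above the rest, and the count of 0 of 26 cells in the Eomes-KO library of 602 cells allows a share of up to 11.54%. The mean was 5.43 ± 3.93% in Eomes-KO and 25.7 ± 19.3% in WT host (SD, n = 4 each), which gave the smallest p that 4 against 4 libraries allow but did not pass after adjustment (exact permutation test, two-sided, p = 0.0286, adjusted p = 0.0857 over 3 labels).

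That call turned with the test and with single libraries. edgeR's quasi-likelihood test on the same cell counts gave a log2 fold change of -1.91 with a Benjamini-Hochberg adjusted p of 0.031. When the WT host library of 3791 cells was left out, the difference shrank to -11.04 percentage points, against -20.3 with all libraries. The adjusted p of the exact permutation test was 0.0857 in both cases. Its p before adjustment, 0.0286, was again the smallest that the libraries allow, so the unchanged value does not track the smaller difference.

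Intermediate mesoderm was the extended label of 15.4, 10.4, 14.96 and 17.0% of the caudal mesoderm cells in the Eomes-KO libraries of 602, 1153, 3346 and 3465 cells, against 8.33, 3.57, 8.89 and 15.2% in the WT host libraries of 2414, 3791, 5819 and 8133 cells. The means of 14.4 ± 2.83% and 8.99 ± 4.75% (SD, n = 4 each) overlapped in their ranges (exact permutation test, two-sided, p = 0.0857, adjusted p = 0.129).

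**Figure D2:**
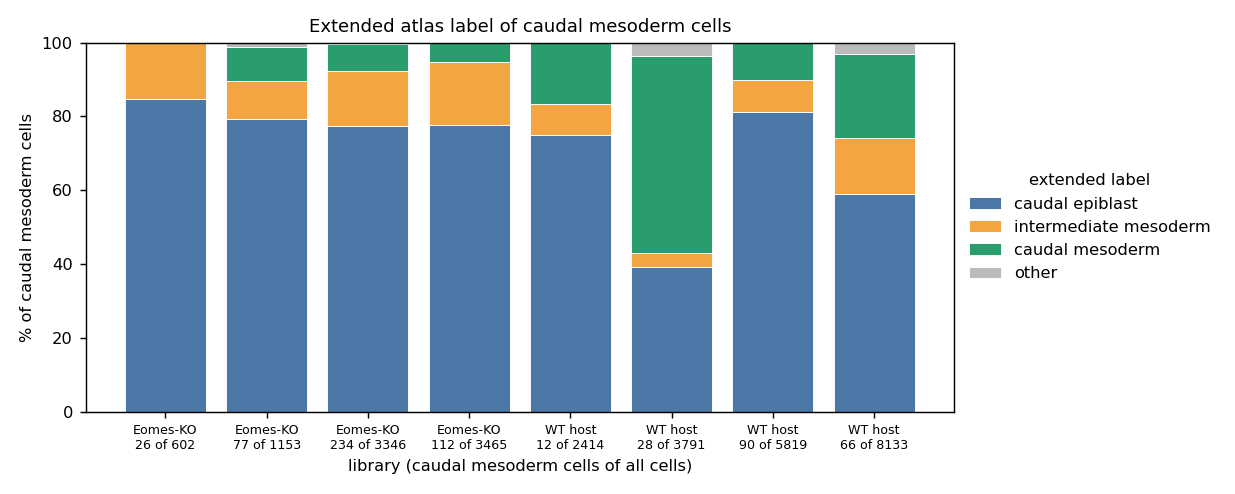
Each bar is 1 library, with its caudal mesoderm cells and all its cells written below, and is divided by the extended atlas label in % of the caudal mesoderm cells. Caudal epiblast fills 77.4 to 84.6% of the Eomes-KO bars and 39.3 to 81.1% of the WT host bars, and the WT host library of 3791 cells has the highest share of caudal mesoderm, 53.6%.

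Read the other way, the extended labels show how the combined annotation divided the tail end. Of the 877 Eomes-KO cells with the extended label caudal epiblast, 351 (40.0%) were caudal mesoderm in the combined annotation and 444 (50.6%) were caudal epiblast. Of the 664 such WT host cells, 132 (19.9%) were caudal mesoderm and 438 (66.0%) caudal epiblast. By library, the share called caudal mesoderm was 28.9, 42.7, 47.1 and 31.8% in Eomes-KO (602, 1153, 3346 and 3465 cells) and 12.0, 25.0, 23.0 and 17.2% in WT host (2414, 3791, 5819 and 8133 cells). The ranges did not meet. This split was looked at after the other results were seen and was not tested.

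Most cells with the extended label caudal mesoderm kept that name, 30 of 48 (62.5%) in Eomes-KO and 41 of 60 (68.3%) in WT host, and most of the others were called somitic mesoderm or NMP. Presomitic mesoderm, the tissue that caudal mesoderm feeds, was almost never found among the members. Of the cells with that extended label, 0 of 768 in Eomes-KO, which allows a share of up to 0.391%, and 1 of 338 in WT host were called caudal mesoderm, whereas 576 (75.0%) and 200 (59.2%) were called intermediate mesoderm.

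The nearest labels differed in how far the annotations matched. The extended label that led among combined caudal epiblast cells was caudal epiblast, in 882 of 891 cells (99.0%). Among combined NMPs it was NMPs, in 396 of 971 (40.8%), and among combined intermediate mesoderm it was intermediate mesoderm, in 1054 of 2389 (44.1%). Combined caudal mesoderm and somitic mesoderm were led by an extended label of another name, which for somitic mesoderm was intermediate mesoderm in 395 of 853 cells (46.3%).

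To set caudal mesoderm against these neighbours, the number of its cells was divided by that of each label in the same library. For every NMP, the bipotent progenitor of spinal cord and tail-end mesoderm, there were 1.24, 1.57, 1.24 and 1.35 caudal mesoderm cells in the Eomes-KO libraries of 602, 1153, 3346 and 3465 cells. In the WT host libraries of 2414, 3791, 5819 and 8133 cells there were 0.125, 0.135, 0.804 and 0.308. Caudal mesoderm thus outnumbered NMPs in every Eomes-KO library and in no WT host library.

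As log2 values, after adding 0.5 to both counts, the ratio to NMPs averaged 0.42 ± 0.16 in Eomes-KO and -1.95 ± 1.24 in WT host (SD, n = 4 each). The difference of 2.38 had the smallest p the design allows and did not pass after adjustment over the 4 ratios (exact permutation test, two-sided, p = 0.0286, adjusted p = 0.0571).

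Somitic mesoderm, the segmented tissue beside the neural tube, gave the same order. There were 0.813, 1.64, 1.26 and 2.11 caudal mesoderm cells per somitic mesoderm cell in the Eomes-KO libraries of 602, 1153, 3346 and 3465 cells, and 0.200, 0.190, 0.588 and 0.375 in the WT host libraries of 2414, 3791, 5819 and 8133 cells. The groups did not overlap. The log2 ratios averaged 0.46 ± 0.58 and -1.70 ± 0.76 (SD, n = 4 each), a difference of 2.16 (exact permutation test, two-sided, p = 0.0286, adjusted p = 0.0571). Among cells with at least 10000 UMIs the difference was 1.34 (exact permutation test, adjusted p = 0.114). The WT host library of 8133 cells has 0 cells of either label at that depth, and without it the difference was 1.64 (adjusted p = 0.0571 in the same exact test). NMPs and somitic mesoderm themselves showed log2 fold changes of 0.15 (SE 0.39) and 0.49 (SE 0.41) between the genotypes and did not pass edgeR's test (adjusted p = 0.711 and 0.294).

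The ratios to caudal epiblast and to intermediate mesoderm overlapped between the genotypes. Per caudal epiblast cell there were 0.531, 1.05, 1.40 and 0.704 caudal mesoderm cells in the Eomes-KO libraries of 602, 1153, 3346 and 3465 cells, and 0.218, 1.27, 0.427 and 0.426 in the WT host libraries of 2414, 3791, 5819 and 8133 cells. The WT host library of 3791 cells, with 28 caudal mesoderm and 22 caudal epiblast cells, lay among the Eomes-KO libraries. The log2 difference was 0.85 (exact permutation test, two-sided, p = 0.171, adjusted p = 0.171). It ranged between 0.49, without the WT host library of 2414 cells, and 1.32, without that of 3791 cells.

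Per intermediate mesoderm cell the ratio was 0.310, 0.353, 0.451 and 0.1798 in Eomes-KO and 0.136, 0.217, 0.342 and 0.142 in WT host, with a log2 difference of 0.64 (adjusted p = 0.171 in the same exact permutation test). Both labels were themselves higher in Eomes-KO, by log2 fold changes of 1.41 (SE 0.47, edgeR, adjusted p = 0.0130) for caudal epiblast and 1.88 (SE 0.28, adjusted p = 2.74e-05) for intermediate mesoderm.

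**Figure D3:**
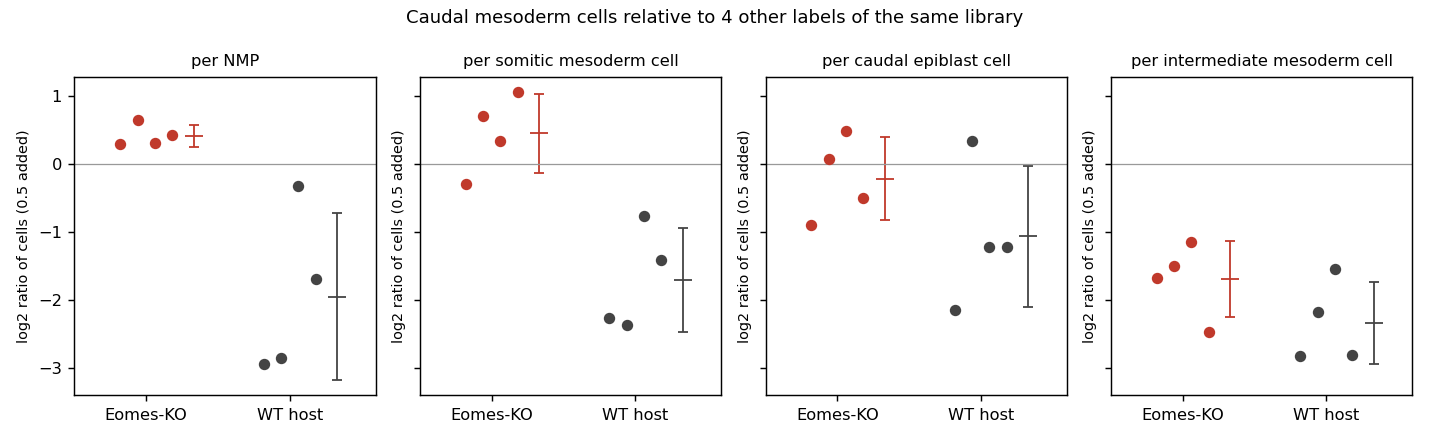
Each point is 1 library, and the y axis is the log2 of the caudal mesoderm cells per cell of the label named above the panel, 0.5 being added to each count, with the mean and SD of 4 libraries. Against NMPs and somitic mesoderm all Eomes-KO libraries lie above the WT host libraries (differences of 2.38 and 2.16), whereas the groups overlap against caudal epiblast and intermediate mesoderm.

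Each cell was also mapped by the authors to an atlas stage between E7.5 and E8.5. Caudal mesoderm mapped mostly to E8.0, with 286 of 449 Eomes-KO cells (63.7%) and 109 of 196 WT host cells (55.6%), and next to E8.25, with 130 (29.0%) and 71 (36.2%). Only 29 Eomes-KO and 12 WT host cells mapped to E7.75, 2 and 0 to E7.5, and 2 and 4 to E8.5. The labels give E8.5 as the age of the embryos, and the paper's results give E8.25 to E8.5.

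By library, E8.0 took 76.9, 67.5, 56.0 and 74.1% of the caudal mesoderm cells in the Eomes-KO libraries of 602, 1153, 3346 and 3465 cells, against 50.0, 28.6, 66.7 and 53.0% in the WT host libraries of 2414, 3791, 5819 and 8133 cells. The WT host library of 3791 cells was the one in which E8.25 prevailed, at 57.1%. The mean mapped day was 8.04 ± 0.04 in Eomes-KO and 8.09 ± 0.05 in WT host (SD, n = 4 each), a difference of -0.0540 days that did not pass (exact permutation test, two-sided, p = 0.143, adjusted p = 0.286 over 2 measures).

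Caudal mesoderm mapped earlier than the rest of its library in all 8 libraries. The library mean minus that of the other epiblast-derived cells averaged -0.129 ± 0.0284 days in Eomes-KO and -0.136 ± 0.0125 days in WT host (SD, n = 4 each). The genotypes differed in this lag by 0.00706 days (exact permutation test, two-sided, p = 0.686, adjusted p = 0.686). Among the other epiblast-derived cells, 13.6 to 25.1% mapped to E8.5 in the Eomes-KO libraries and 19.8 to 38.9% in the WT host libraries, against 0 to 1.30% and 0 to 7.14% of the caudal mesoderm cells. Neighbouring labels mapped early as well. Over pooled cells the mean mapped day was 8.056 in Eomes-KO and 8.085 in WT host caudal mesoderm, against 7.994 and 8.038 in caudal epiblast and 8.09 and 8.135 in intermediate mesoderm. Somitic mesoderm (8.225 and 8.179) and NMPs (8.30 and 8.355) mapped later.

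**Figure D4:**
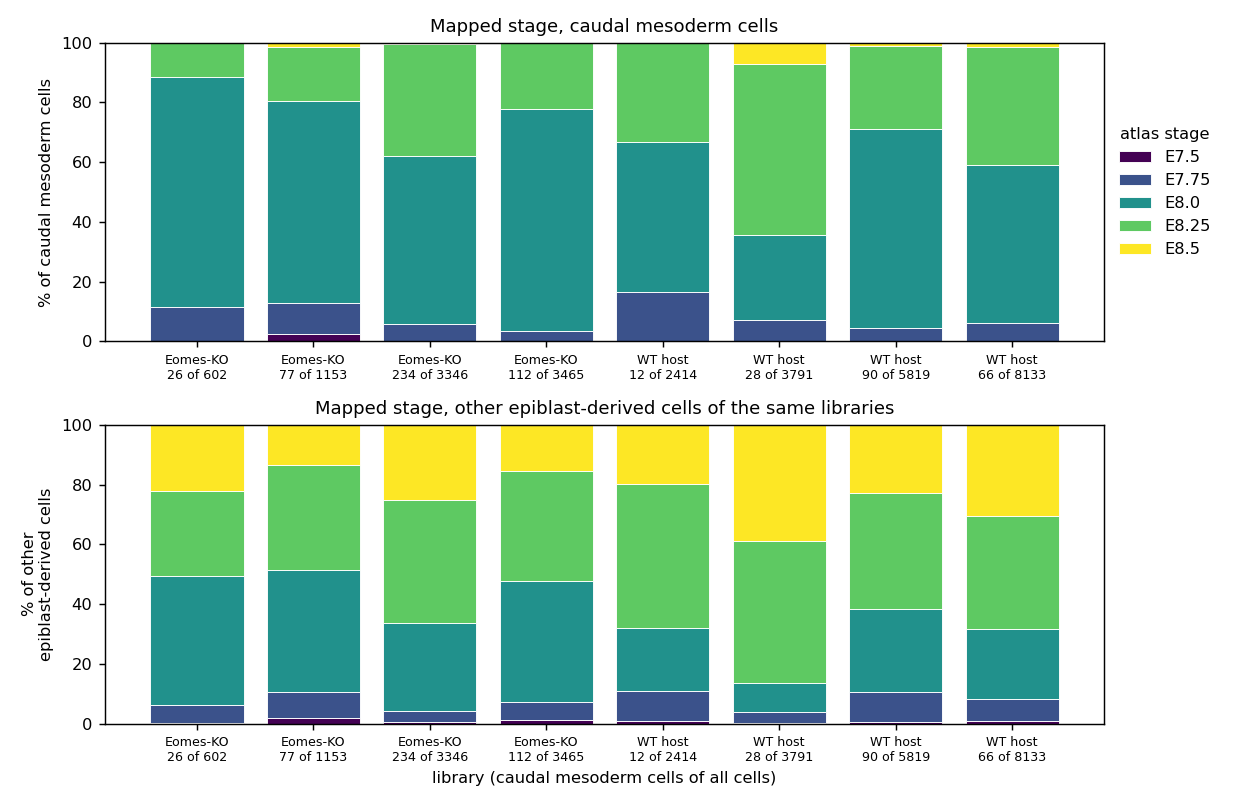
Each bar is 1 library divided by mapped atlas stage, in % of its caudal mesoderm cells (top) and of its other epiblast-derived cells (bottom). E8.0 takes 56.0 to 76.9% of caudal mesoderm in Eomes-KO and 28.6 to 66.7% in WT host, and E8.5 at most 1.30 and 7.14%.

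Mapped stage went with the extended label. Of the cells with the extended label caudal mesoderm, 80.0% in Eomes-KO (30 cells) and 80.5% in WT host (41 cells) mapped to E8.25 or E8.5. Of those with the label caudal epiblast it was 29.3% (351 cells) and 28.03% (132 cells), and of those with the label intermediate mesoderm 7.58% (66 cells) and 10.0% (20 cells). Within each extended label the mean mapped day was close in both genotypes, at 8.05 and 8.05 for caudal epiblast, 8.22 and 8.22 for caudal mesoderm and 8.004 and 8.025 for intermediate mesoderm. These are values over pooled cells, given without a test.

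Sequencing depth differed between libraries more than any other quality measure. The median number of unique molecular identifiers (UMIs, counted molecules) per caudal mesoderm cell came to 35619, 18603, 18390 and 8779 in the Eomes-KO libraries of 602, 1153, 3346 and 3465 cells. It was 9986, 9477, 10903 and 4903 in the WT host libraries of 2414, 3791, 5819 and 8133 cells. The groups overlapped only through the Eomes-KO library of 3465 cells. On the log2 scale the difference was 1.10 (exact permutation test, two-sided, p = 0.114, adjusted p = 0.286 over 5 measures).

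Among cells with at least 10000 UMIs, which the WT host library of 8133 cells lacks in caudal mesoderm, the fold change of the caudal mesoderm share was 2.42 on the log2 scale (SE 0.63, edgeR, adjusted p = 0.000312). In the makeup, the extended label caudal mesoderm then differed by -19.4 and caudal epiblast by 15.6 percentage points between the genotypes (4 Eomes-KO and 3 WT host libraries, exact permutation test, adjusted p = 0.257 and 0.286), against -20.3 and 16.1 at all depths. Within a library, caudal mesoderm was sequenced to much the same depth as the other cells. The log2 median of the caudal mesoderm cells differed from that of the other epiblast-derived cells of the same library by -0.18 to 0.26, was above it in 4 of 8 libraries and averaged 0.03 (exact sign-flip permutation test, two-sided, adjusted p = 0.696 over 8 measures).

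The remaining quality measures overlapped between the genotypes. The median number of genes detected per caudal mesoderm cell was 2845 to 5853 in Eomes-KO libraries and 2002 to 3148 in WT host libraries (log2 difference 0.58, adjusted p = 0.286 in the exact permutation test). Mitochondrial transcripts took 1.63 ± 0.510% of the UMIs in Eomes-KO and 1.57 ± 0.422% in WT host, and ribosomal protein transcripts 26.5 ± 1.42% and 25.9 ± 1.02% (SD of library medians, n = 4 each; adjusted p = 0.857 and 0.750, exact permutation test).

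The doublet score, a measure of how much a cell resembles a mixture of cells, had a median of 0.315, 0.240, 0.160 and 0.245 in the Eomes-KO libraries of 602, 1153, 3346 and 3465 cells, and 0.260, 0.190, 0.240 and 0.160 in the WT host libraries of 2414, 3791, 5819 and 8133 cells (adjusted p = 0.750, exact permutation test). No order by genotype was seen. With only cells scoring under 0.25, the log2 fold change of the caudal mesoderm share was 2.66 (SE 0.48, edgeR, adjusted p = 2.45e-05).

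Each label was a vote among the 15 closest atlas cells, and its score, the share of votes won, shows how firmly a cell was placed. The original label score of caudal mesoderm averaged 0.744, 0.721, 0.731 and 0.729 in the Eomes-KO libraries of 602, 1153, 3346 and 3465 cells, and 0.750, 0.626, 0.732 and 0.692 in the WT host libraries of 2414, 3791, 5819 and 8133 cells. The lowest was again the WT host library of 3791 cells. The means of 0.731 ± 0.00926 and 0.70 ± 0.0549 (SD, n = 4 each) did not differ beyond this spread (exact permutation test, two-sided, adjusted p = 0.600 over 3 scores).

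The extended label score averaged 0.80 ± 0.0437 in Eomes-KO and 0.728 ± 0.0574 in WT host (adjusted p = 0.429), and the stage score 0.578 ± 0.0152 and 0.575 ± 0.0122 (SD, n = 4 each; adjusted p = 0.80, both exact permutation tests). Of all 645 cells, 63 had an original label score below 0.5 and 55 had the full score of 1.

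Caudal mesoderm was placed less firmly than the rest of its library. Its mean original label score was lower in 8 of 8 libraries, by -0.112 to -0.102 in Eomes-KO and -0.253 to -0.116 in WT host. The mean of -0.137 had the smallest p that sign flips of 8 libraries allow and missed the threshold after adjustment over 8 measures (exact sign-flip permutation test, two-sided, p = 0.00781, adjusted p = 0.0625). The extended label score and the stage score were each lower in 6 of 8 libraries, with mean differences of -0.0361 and -0.0262 (adjusted p = 0.25 for both in the same test). The most similar labels also scored low. Over pooled cells the mean original label score was 0.730 in Eomes-KO and 0.704 in WT host caudal mesoderm, against 0.763 and 0.764 in somitic mesoderm, 0.793 and 0.749 in intermediate mesoderm and 0.791 and 0.766 in caudal epiblast. NMPs had 0.817 and 0.881, and the library means of all other epiblast-derived cells lay at 0.832 to 0.845 in Eomes-KO and 0.861 to 0.879 in WT host.

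The order of the members by firmness depended on the score. Cells with the extended label caudal mesoderm had a mean extended label score of 0.598 in Eomes-KO and 0.603 in WT host. It was 0.806 and 0.807 for those with the label caudal epiblast and 0.699 and 0.640 for those with the label intermediate mesoderm, as means over pooled cells. By the original label score, those with the extended label caudal mesoderm had 0.762 in Eomes-KO and 0.670 in WT host, those with caudal epiblast 0.743 and 0.722, and those with intermediate mesoderm 0.656 and 0.693. Cells with the extended label caudal mesoderm thus had the lowest extended label score of the 3 in both genotypes. Their place by the original label score varied between libraries. In Eomes-KO they exceeded those with caudal epiblast only in the library of 3346 cells (0.804 against 0.734, 17 cells). They lay below them in the libraries of 1153 (0.676 against 0.746) and 3465 cells (0.744 against 0.753). In the WT host library of 8133 cells they had the highest score of the 3 (0.724).

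**Figure D5:**
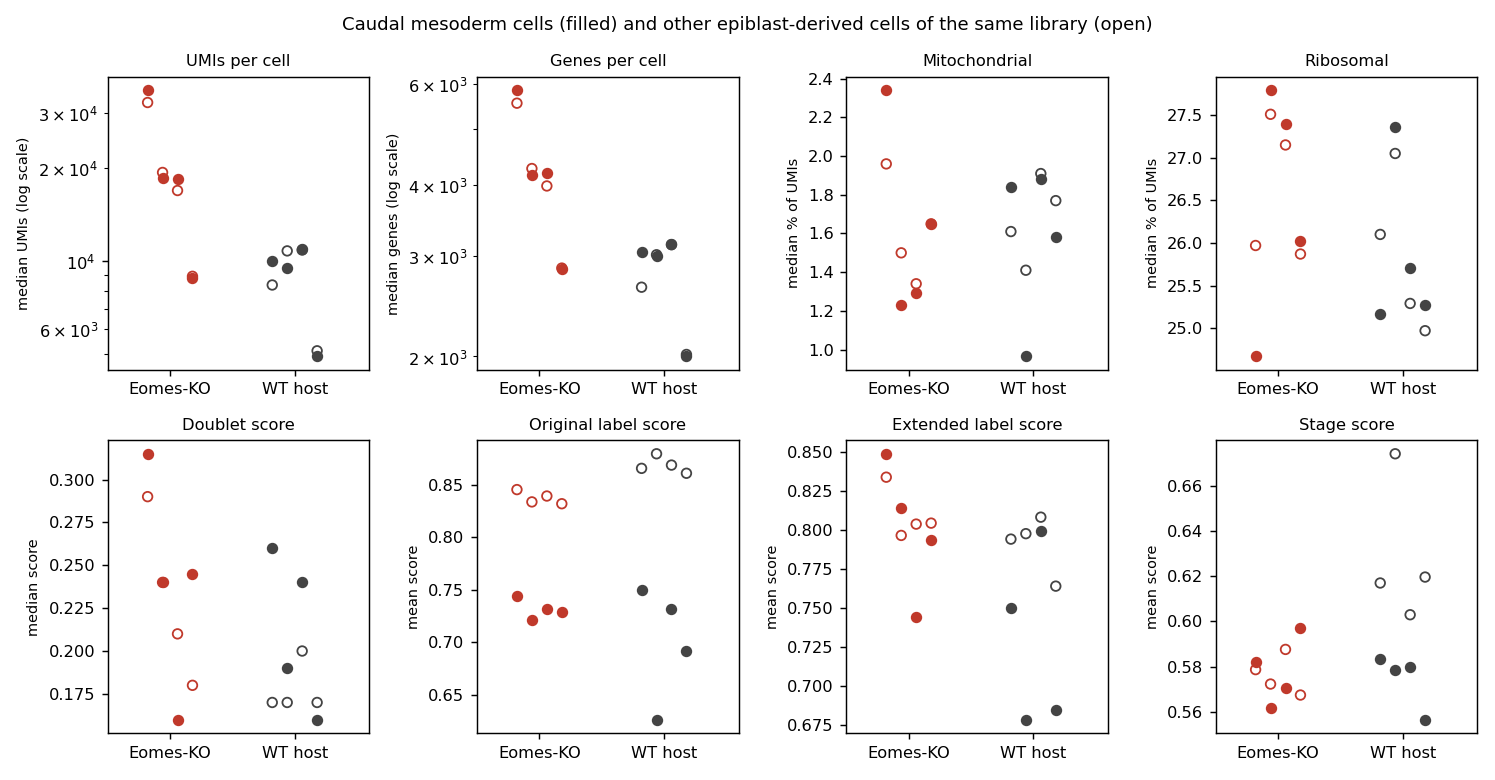
Filled points are library values over caudal mesoderm cells and open points those over the other epiblast-derived cells of the same library, as medians of UMIs, genes (both on log axes), mitochondrial and ribosomal percent of UMIs and doublet score, and as means of the 3 label scores. The original label score of caudal mesoderm lies below that of the other cells in all 8 libraries, by -0.253 to -0.102, and UMIs follow the library.

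The single nearest atlas cell of each member was compared last. The 645 cells pointed to 420 different atlas cells, 307 of them named by Eomes-KO cells and 172 by WT host cells, with 59 in both sets. Of the Eomes-KO cells, 107 of 449 (23.8%) pointed to 1 of these 59 shared atlas cells, and of the WT host cells 73 of 196 (37.2%). No atlas cell was the nearest of more than 8 members. The shares depend on how many cells each genotype has and are given as a description.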

How the data were processed

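Single-cell RNA-seq libraries were made with 10x 3' v3 chemistry from tdTomato+ and tdTomato- cells of chimeric mouse embryos. The authors counted reads with Cell Ranger 6.0.1 on mm10, filtered cells on UMIs, genes, mitochondrial and ribosomal percent and doublet score (at most 0.5 in the deposited table), and mapped each cell to atlas cells of E7.5 to E8.5, giving each cell the label of its 15 nearest atlas cells. The deposited table has 1 line per cell, with UMI counts and gene numbers, mitochondrial and ribosomal percent, doublet and label scores as the authors computed them, and labels; fold changes of the authors' own comparisons are not in it. Gene counts were not analysed here.

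Cells were counted per library and label. The study's methods have the embryo pool as a term, but library names in the table do not show the clone or pool, so libraries were grouped by the tdTomato call alone. Labels, or pairs of labels, with at least 10 cells were fitted with edgeR 4.0.16 in R 4.3.3 (quasi-likelihood, genotype as the only term, epiblast-derived cells as library size, Benjamini-Hochberg adjustment, threshold 0.05), and limma 3.58.1 and DESeq2 1.42.0 were alternatives. Library shares, means and medians were compared with exact permutation tests, and exact binomial intervals (95%) and floors of 3 cells cover counting error only. Where 0.5 was added to counts, 1 was tried as well. The fits were tested on simulated data. The p-values measure the spread between these 4 and 4 libraries. Precision is set by 12 to 234 caudal mesoderm cells a library and 4903 to 35619 median UMIs a cell. All extended and original labels with at least 10 caudal mesoderm cells, all stages, measures and scores, and 4 like labels were described. The members and lists were chosen with earlier results of these data known. Alternatives were other scalings, tools, denominators, filters on scores, depth and doublets, and leaving out each library.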

Additional observations from a re-analysis of the deposited data

Results flagged for a closer look

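In 46 groups of 4 library values, the highest or lowest library was set against the other 3, and chance marks about 1 group in 20. Genes detected per caudal mesoderm cell, as the log2 of the library median, stood at 10.97 in the WT host library of 8133 cells, far below the other WT host libraries (11.55 to 11.62). Relative to the other epiblast-derived cells of the same library, log2 genes per caudal mesoderm cell lay 0.207 higher in the WT host library of 2414 cells, where the other WT host libraries ranged between -0.01 and 0.0037. The ribosomal percent of caudal mesoderm cells relative to the same cells was -1.30 percentage points in the Eomes-KO library of 602 cells, the other Eomes-KO libraries being at 0.155 to 0.280. It was -0.93 in the WT host library of 2414 cells, the other WT host libraries being at 0.300 to 0.415. The Eomes-KO library of 602 cells and the WT host library of 2414 cells hold the fewest caudal mesoderm cells of their genotype, 26 and 12, and the part of this in the values was not tested.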

How the results depend on the processing

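The higher share of caudal mesoderm in Eomes-KO kept its direction and its call in every alternative run. The log2 fold change was 1.57 with DESeq2's ratio size factors, 3.08 with its poscounts factors, 2.24 with TMM and 2.55 with limma, and 2.26 to 2.92 when each library was left out in turn. These scalings moved the median of all labels by -0.91 (ratio), 0.60 (poscounts) and -0.14 (TMM). Leaving out each library gave 2.44 to 3.42 for members with the extended label caudal epiblast 2.60 to 3.22 for those with intermediate mesoderm and 0.30 to 1.11 for those with caudal mesoderm (edgeR, adjusted p = 0.0873 to 0.730).

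Calls on the makeup turned. The lower share of the extended label caudal mesoderm passed in edgeR (log2 fold change -1.91, adjusted p = 0.031), and leaving out each library gave differences of -25.56 to -11.04 percentage points (exact permutation test, adjusted p = 0.0429 to 0.257), passing only without the WT host library of 5819 cells. The share of caudal epiblast likewise passed only without that library (7.98 to 21.92 points).

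Ratios to NMPs and somitic mesoderm missed the threshold after adjustment in every alternative run. The smallest p of the exact permutation test, 0.0286, adjusted to 0.0571 where only these ratios reached it. No size of difference could therefore have passed unless a further ratio also reached that p, and no conclusion is drawn from the miss. Both ratios kept their direction in every alternative run. Their log2 differences were 2.04 to 2.92 (NMPs) and 1.94 to 2.47 (somitic mesoderm) when each library was left out. The ratios to caudal epiblast and intermediate mesoderm then ranged over 0.49 to 1.32 and 0.46 to 0.91. At 10000 UMIs or more without the WT host library of 8133 cells, chosen after seeing the data, they were 0.40 and -0.0634.

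Signs turned only for differences that missed the threshold in all settings tried. With at least 10000 UMIs the genotype difference in mapped day relative to the other cells was -0.0009997, and as the share mapped to E8.25 or E8.5, chosen after seeing the data, it was -2.544 points. With 10000 to 20000 UMIs the genotype difference was -0.136 in doublet score, -0.0746 points in mitochondrial and 0.852 points in ribosomal percent relative to the other cells. The WT host library of 8133 cells has no caudal mesoderm cell in either range of UMIs and dropped out of these. Leaving out each library gave genotype differences of -0.00189 to 0.0193 days in mapped day relative to the other cells, -0.176 to 0.194 points in mitochondrial percent, -0.00317 to 0.00853 in stage score and, relative to the other cells, -0.0251 to 0.122 in log2 UMIs, -0.0417 to 0.0307 in log2 genes and -0.497 to 0.203 points in ribosomal percent. The mean difference between caudal mesoderm and the other cells of a library was also taken with each library left out. It was then -0.0077 to 0.0555 in log2 UMIs, -0.108 to 0.010 points in mitochondrial and -0.134 to 0.111 points in ribosomal percent. With all 8 libraries it was 0.0256, -0.0469 and -0.0656. This alternative was added after seeing the data.

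No paired analysis was possible because library names in the table carry neither clone nor pool. The pool term was therefore not run. The 12 to 90 caudal mesoderm cells of a WT host library limit the makeup and the label scores.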
